A study of Mus with 15 samples.

Results

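Chromatin carrying ubiquitinated histone H2A was examined at 9 genes of the opioid and CART peptide systems in mouse thalamus. They were the precursor genes Penk, Pdyn, Pomc, Pnoc and Cartpt and the receptor genes Oprm1, Oprd1, Oprk1 and Oprl1, out of 21887 protein-coding genes that could be placed on the mm10 assembly. A peak counted for a gene when it overlapped the gene body or the 5 kb on either side (the window of that gene). The measure was the number of base pairs of the window that lay under peaks in a library, called the covered length here. The genes were chosen by name, with earlier results of these data known, and the rule that selects them uses no peak value.

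H2A ubiquitinated at a C-terminal lysine (H2AK119ub, H2Aub below) was profiled by ChIPmentation, in which chromatin is precipitated with an antibody and then tagged for sequencing on the beads by a transposase. Every mouse was 2 to 4 months old and carried a floxed Maged1 allele, as the labels give the control genotype as Maged1 Loxp. In Maged1 cKO mice (cKO) a Cre driven by the vGluT2 promoter deleted Maged1, so that cells not expressing that promoter kept the gene, and their floxed littermates without deletion are called WT. All mice had saline injections for 3 days and then either cocaine (20 mg/kg, intraperitoneal) or saline on 5 days. WT mice gave 3 libraries per treatment, and cKO mice gave 2 after cocaine and 3 after saline, each from a pool of 3 to 4 thalami per the labels. The 4 input samples that served as the control for peak calling were not analysed here. The peak lists measure neither the deletion of Maged1 nor any marker of thalamic cells, so neither label could be checked in them. In whole thalami, a mark in more cells and more of the mark per cell cannot be told apart.

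H2AK119ub is deposited by Polycomb repressive complex 1 and is best known at the promoters of silenced developmental genes, many of which are cell-type specific. Opioid peptides are cut from large precursors: enkephalins from Penk, dynorphins from Pdyn, beta-endorphin from Pomc and nociceptin from Pnoc. They act on Gi-coupled receptors, namely the mu (Oprm1), delta (Oprd1), kappa (Oprk1) and nociceptin (Oprl1) receptors. Cartpt encodes the precursor of CART, a peptide named for its regulation by cocaine and amphetamine.

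The peak lists differed in length, and those of 2 libraries stood apart. The cKO cocaine and cKO saline libraries numbered 1 held 54653 and 80713 peaks, against 7271 to 26055 in the other 9 lists, and had a peak at 50.4% and 58.9% of the coding genes, against 12.6% to 27.8%. Their highest fold enrichments over input were 31.2 and 52.6, against at most 12.2 elsewhere. The lists hold no read counts. Beyond a minimum that the study states for all its samples, the depth of each library is therefore unknown here, and no counting interval can be given.

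H2Aub peaks recurred at 5 of the 9 genes and were rare or missing at the other 4. Penk, Pnoc and Oprd1 had a peak in all 11 libraries. Cartpt had one in 10 and lacked it in WT saline replicate 2. Pdyn had one in 7 libraries, Pomc in 3 and Oprm1 in 2. Oprk1 and Oprl1 had none in any library. Of all coding genes, 6.76% had a peak in all 11 libraries and 33.9% had none, so the 9 genes held members of both extremes.

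**Figure D1:**
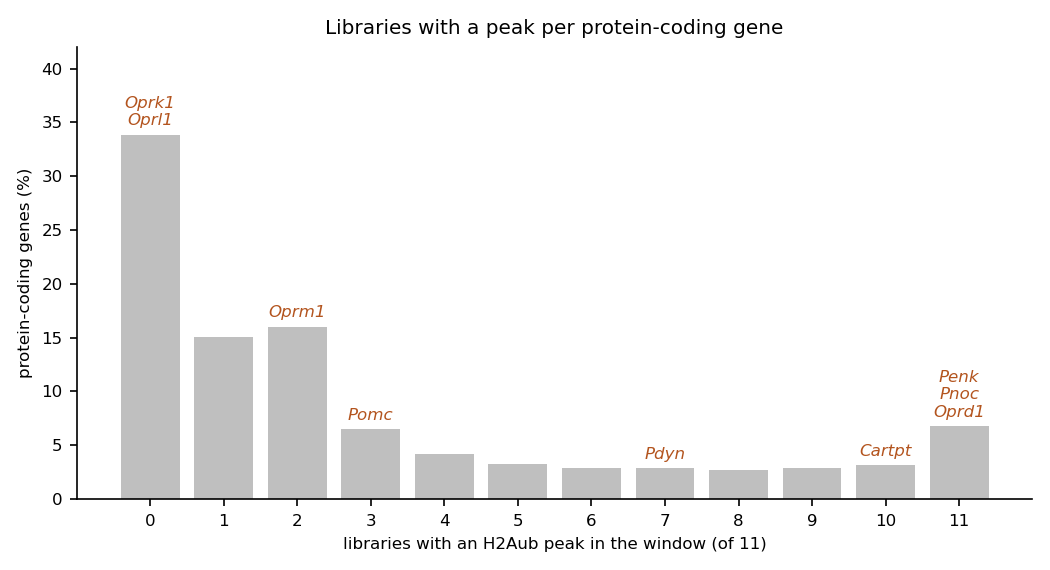
Bars give the percentage of the 21887 protein-coding genes (vertical axis) with an H2Aub peak in the gene body or the 5 kb on either side in 0 to 11 libraries (horizontal axis), and the 9 genes are written above their bar. Penk, Pnoc and Oprd1 stand at 11 libraries, Cartpt at 10, Pdyn at 7, and Oprk1 and Oprl1 at 0.

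By group, 5 of the 9 genes had a peak in at least 2 libraries of WT cocaine, against 22.8% of all coding genes. The count was 4 of 9 in WT saline (17.8% of coding genes), 5 of 9 in cKO cocaine (20.7%) and 4 of 9 in cKO saline (18.7%). Penk, Pnoc, Oprd1 and Cartpt made up the 4 in both saline groups, and Pdyn was the addition in both cocaine groups. Without its replicate 1, cKO saline had a count of 4. The cKO cocaine count was not stable, at 4 in the gene body alone and 1 when each list was cut to its 7271 strongest peaks, as many as the shortest list held (equal list lengths). In that setting Cartpt was the 1 gene left, and Pdyn had 286 and 0 bp in the cKO cocaine libraries.

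Per length, Penk was the most covered of the genes. Over the 11 libraries, peaks covered 7.50% of the Penk window, which was above the share at 96.1% of coding genes. Oprd1 (3.94%), Cartpt (3.84%), Pnoc (3.83%) and Pdyn (3.40%) lay close together, each above the share at 92.2% to 93.0% of coding genes. In base pairs, mean covered length was 1746 ± 801 at Oprd1, 1335 ± 563 at Pnoc, 1145 ± 432 at Penk, 834 ± 563 at Cartpt and 795 ± 814 at Pdyn (SD over 11 libraries of 4 groups). Neighbours in this order differed by less than their SD. In the 9 lists without the cKO replicates numbered 1 the means were 1594 bp at Oprd1, 1329 bp at Pnoc, 1081 bp at Penk, 728 bp at Pdyn and 640 bp at Cartpt, so that Pdyn and Cartpt changed places. Oprm1 (106 bp) and Pomc (66.5 bp) came far below, and over those 9 lists they had 0 and 33.7 bp. The median of all coding genes over the 11 libraries was 35.7 bp.

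At Penk, Pnoc, Pdyn, Cartpt and Oprd1, the stretch shared by most libraries lay near an end of the gene, with further stretches inside Pdyn, Pnoc and Oprd1. When peaks of different libraries that overlapped were joined, the peaks at the 9 genes formed 36 stretches, of which 21 came from 1 library. In the 9 lists other than the cKO replicates numbered 1, 60 of 77 peaks (77.9%) were centred no more than 2 kb from an end of the gene. In those 2 lists it was 22 of 42 peaks (52.4%). Such a share was not computed over all coding genes. In a short window, such as that of Penk (15280 bp), a large part lies this close to an end. The gene table gives no strand, so the ends are named by coordinate and no transcription start site is assigned.

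Penk (gene ID 18619, chr4:4133536-4138815) carried its mark at the end with the higher coordinate. A stretch at chr4:4137464-4140231, from −1.35 kb (inside the gene) to 1.42 kb (beyond it) relative to that end, held 18 of its 20 peaks and was marked in all 11 libraries. Within it, the 45 bp at chr4:4138118-4138162, in the gene body, lay under a peak in 10 of the 11. WT saline replicate 3 was the exception, with peaks on either side of these bases. No gene other than Penk lay within the window. Fold enrichments at Penk stayed between 3.15 and 4.44 in every list, and all its peaks had a q of at most 0.05.

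Pnoc (gene ID 18155, chr14:65400673-65425564) was also marked at its higher-coordinate end. The main stretch, chr14:65423798-65426366, was marked in 10 libraries, and cKO saline replicate 2 was the library without it. A neighbouring stretch inside the gene, at chr14:65422325-65423212, was marked in 6 libraries, among them all 3 WT cocaine libraries, 1 WT saline library, 2 cKO saline libraries and no cKO cocaine library. The body of Zfp395, a zinc finger gene, reaches into the lower flank of the Pnoc window. The peaks in that flank, all within the body of Zfp395, came from the cKO replicates numbered 1 alone.

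Pdyn (gene ID 18610, chr2:129686549-129699938) was marked around its higher-coordinate end, but with less overlap between libraries. The stretch at chr2:129698614-129701928 held a peak in all 7 libraries with any peak at the gene: all 3 of WT cocaine, 1 of WT saline, both of cKO cocaine and 1 of cKO saline. Its most shared bases, chr2:129700372-129700537, lay outside the gene and were covered in 4 libraries. A further 6 stretches at Pdyn were each seen in 1 library, and 1 in both replicates numbered 1 of cKO.

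Cartpt (gene ID 27220, chr13:99898483-99910179) differed from these in being marked at its lower-coordinate end. All 14 of its peaks had their midpoint nearer to that end. In each of the 10 libraries with a peak, the stretch at chr13:99899029-99901276, from 0.55 to 2.79 kb inside the gene, was marked. Its most shared bases, chr13:99900005-99900273, were covered in 7 of them, as was 1 further run of bases in the same stretch. No other gene lay in the window.

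Pomc (gene ID 18976, chr12:3954945-3960643) had 1 short stretch, chr12:3954611-3954987, across its lower-coordinate end. It was seen in WT cocaine replicate 2 and in the cKO replicates numbered 1 of both treatments, with widths of 303, 192 and 237 bp. The body of Efr3b reaches into the flank at the other end of the gene, where no peak was found.

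Among the receptors, Oprd1 (gene ID 18386, chr4:132110188-132144486) was the one with recurrent peaks. A stretch of 3326 bp at its higher-coordinate end, chr4:132142539-132145864, was marked in all 11 libraries and held 18 of the 33 peaks at the gene. A smaller stretch inside the gene, chr4:132133173-132133996, was marked in both cKO cocaine libraries and in WT saline replicate 1. A transfer RNA gene (n-TAcgc3) and a pseudogene (Gm13215) lie in the window, outside all of its peaks.

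Oprm1 (gene ID 18390, chr10:6758593-7038209), the mu receptor gene and the longest of the 9, had no peak in any of the 9 lists other than the cKO replicates numbered 1. In those it had 2 and 5 peaks of 133 to 259 bp in a window of 289617 bp, and 2 of the 5 stretches were common to both. Both of these lay within the body of Ipcef1, which overlaps Oprm1 and its flank. For Oprk1 (gene ID 18387, chr1:5588450-5606134) the nearest peak lay 14245 bp from the gene, in cKO saline replicate 1, and at least 310185 bp away in the other 9 lists. For Oprl1 (gene ID 18389, chr2:181715000-181720985) the nearest lay 18621 bp away, in WT saline replicate 3, and a pseudogene (Gm14489) shares its window. An empty window says only that no peak was called there, in a list of unknown depth.

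**Figure D2:**
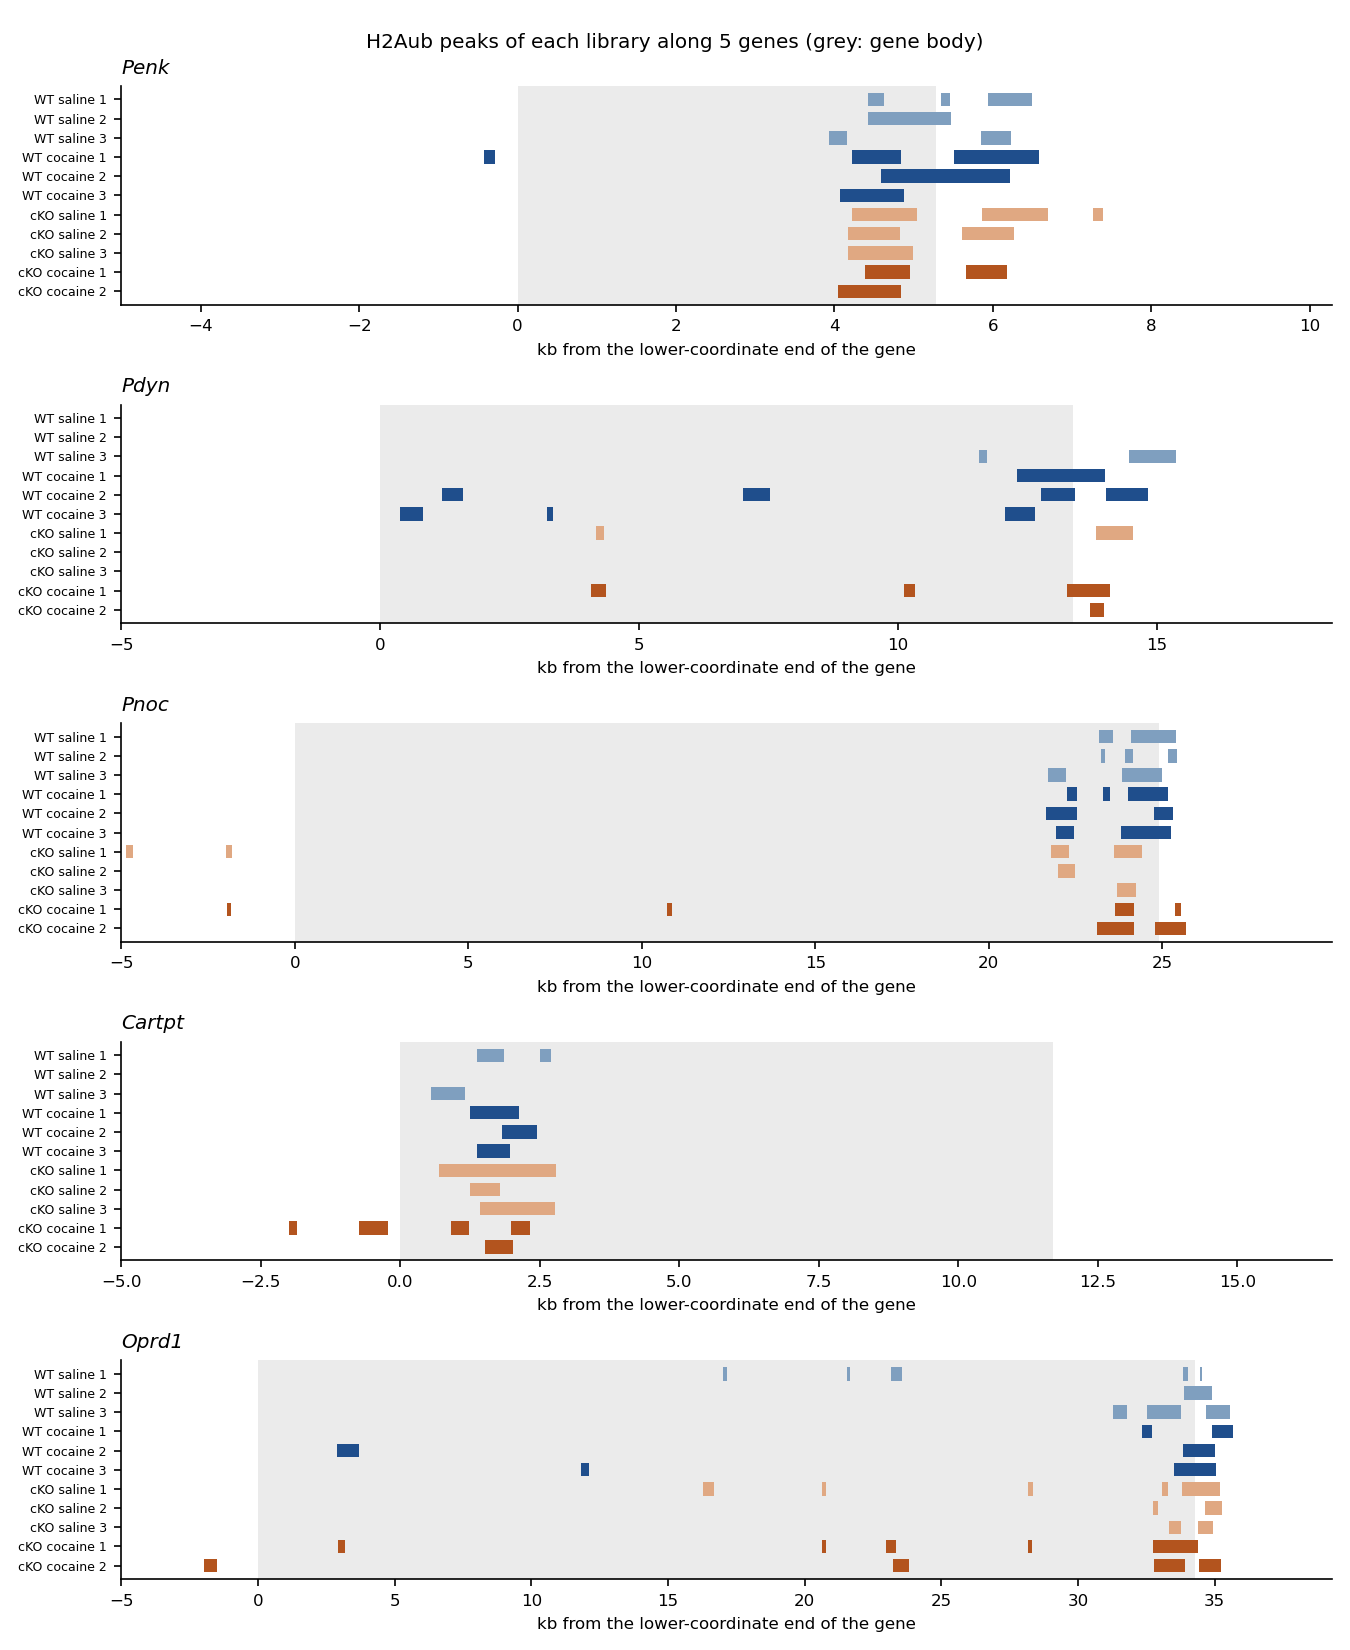
Each panel shows 1 gene, with the distance in kb from its lower-coordinate end on the horizontal axis, 1 row per library, coloured by group, boxes for peaks and grey for the gene body. At Penk and Oprd1 a stretch at the higher-coordinate end is marked in all 11 rows, at Cartpt the marks lie at the lower-coordinate end, and the Pdyn rows of WT saline 1 and 2 and cKO saline 2 and 3 are empty.

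Fold enrichment over input had a median of 3.75 over all peaks at the 9 genes, within the range of 3.10 to 4.02 for the median of all peaks of a list. When the peaks of a list were ranked by their p-value, the best peak at Pnoc stood above a median of 86.0% of the peaks of its list, and above 90% in 5 libraries. The corresponding medians were 81.5% for Penk, 76.2% for Oprd1, 86.9% for Pdyn (7 libraries) and 81.3% for Cartpt (10 libraries). Taking only the best peak of a gene in each library raises these ranks, and no other genes were ranked in this way. Over all peaks at the 9 genes the median rank was 62.2%. By gene it was 51.9% for Pnoc, 68.1% for Penk, 58.7% for Oprd1, 39.6% for Pdyn and 74.8% for Cartpt.

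Strong and narrow peaks came from the cKO replicates numbered 1. All 14 peaks with a fold enrichment above 5 were in these 2 lists, and the highest in the other 9 lists was 4.65. The strongest was a peak of 328 bp at Cartpt in cKO cocaine replicate 1, with a fold enrichment of 19.6 and a q of 2.11e-42. Of the 42 peaks in the 2 lists, 20 overlapped a peak of the other 9 lists, with a median width of 549 bp and a median fold enrichment of 4.12. The remaining 22 overlapped none of these 9 lists, and 12 of those were present in both of these libraries, at Pdyn, Pnoc, Oprm1 and Oprd1, with a median width of 149 bp and a median fold enrichment of 5.04.

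**Figure D3:**
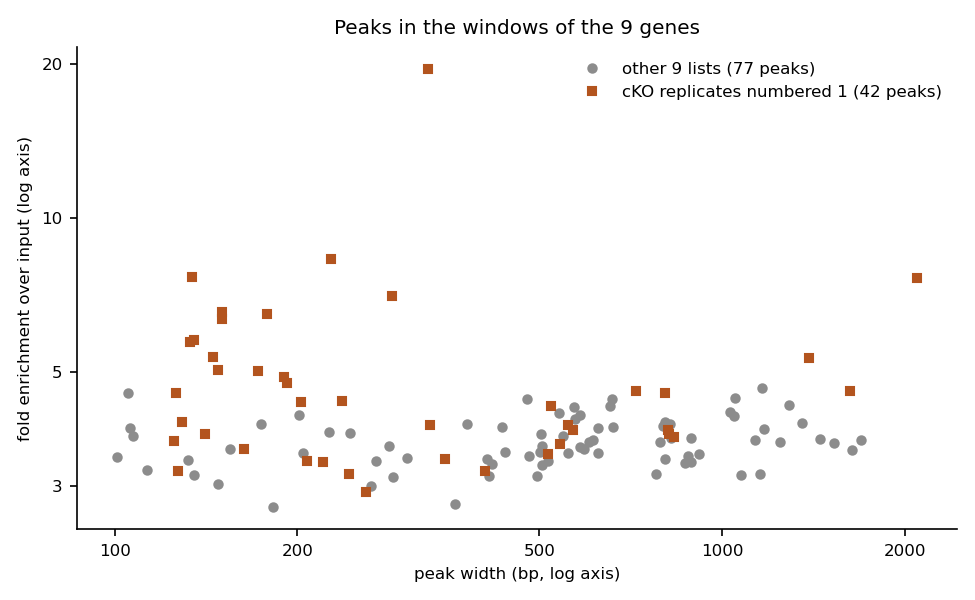
Each point is a peak in the window of 1 of the 9 genes, with its width in bp (horizontal, log axis) against its fold enrichment over input (vertical, log axis). Grey points are the 77 peaks of the other 9 lists, which end at 4.65, and squares are the 42 peaks of the cKO replicates numbered 1, which reach 19.6.

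To ask whether repeated cocaine changed H2Aub at these genes in control mice, WT cocaine was compared with WT saline. Pdyn was the gene whose cocaine libraries all lay above its saline libraries. Its covered length was 1694, 2389 and 1135 bp in WT cocaine and 0, 0 and 1066 bp in WT saline. Among the WT saline libraries, a peak was thus called at Pdyn in replicate 3 alone, which came close to the lowest cocaine library. The means were 1739 ± 628 and 355 ± 615 bp (SD, n = 3 each), a difference of 1384 ± 508 bp (SE; two-sided exact permutation p = 0.10, the smallest that 3 against 3 libraries can give; Benjamini-Hochberg adjusted p = 0.633 over 8200 genes). No gene could therefore pass 0.05 in this comparison. Without overlap, 5.81% of all coding genes were higher in WT cocaine and 0.11% higher in WT saline. With 1 of 9 genes in the first direction and 0 in the second, the count for these genes stands near that background.

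The separation at Pdyn depended on what was counted. It was also present in the gene body alone (1079, 1550 and 1135 bp against 0, 0 and 148 bp) and with q at most 0.05. It ended when only the gene ends were counted, with 1022 bp in WT cocaine replicate 3 against 1066 bp in WT saline replicate 3, and with equal list lengths, with 583 and 653 bp in 2 cocaine libraries against 918 bp and a mean difference of 671 bp. It also ended with the number of peaks (1, 4 and 3 against 0, 0 and 2) and with the widest peak (1694, 806 and 583 bp against 0, 0 and 918 bp) as the measure. The lists held 15874 to 26055 peaks in WT cocaine and 8955 to 23748 in WT saline, ranges that overlap. Over the genome, their peaks covered 17.2, 15.0 and 10.4 Mb in WT cocaine and 11.1, 5.55 and 8.41 Mb in WT saline. The part of list length or of this total in the difference at Pdyn was not tested.

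At the other recurrent genes, the WT groups overlapped. Penk had 1833, 1634 and 805 bp in WT cocaine and 868, 1047 and 605 bp in WT saline, so that 2 cocaine libraries lay above all saline libraries and replicate 3 lay among them. The difference was 584 ± 340 bp (SE, exact permutation p = 0.30), without overlap when WT cocaine replicate 3 was left out (894 bp), and 180 bp with equal list lengths, where WT cocaine replicate 2 had 0 bp. Pnoc had 1602, 1426 and 1952 bp against 1698, 632 and 1664 bp, a difference of 329 ± 382 bp (exact permutation p = 0.60) that turned to −21.0 bp without WT saline replicate 2. Oprd1 had 1142, 1997 and 1818 bp against 932, 1029 and 2630 bp. The highest of these 6 values was thus a saline library, without which the groups did not overlap, and the difference was 122 ± 609 bp (exact permutation p = 0.80). It was 628 bp with q at most 0.05, 584 bp with equal list lengths and −99.0 bp in the gene body. Cartpt had 869, 614 and 583 bp against 682, 0 and 604 bp, and its difference of 260 ± 234 bp (exact permutation p = 0.50) was within the spread of the saline libraries and was 45.7 bp without WT saline replicate 2, the library at 0 bp. Pomc was marked in WT cocaine replicate 2 alone among the WT libraries, and Oprm1, Oprk1 and Oprl1 in none of them.

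**Figure D4:**
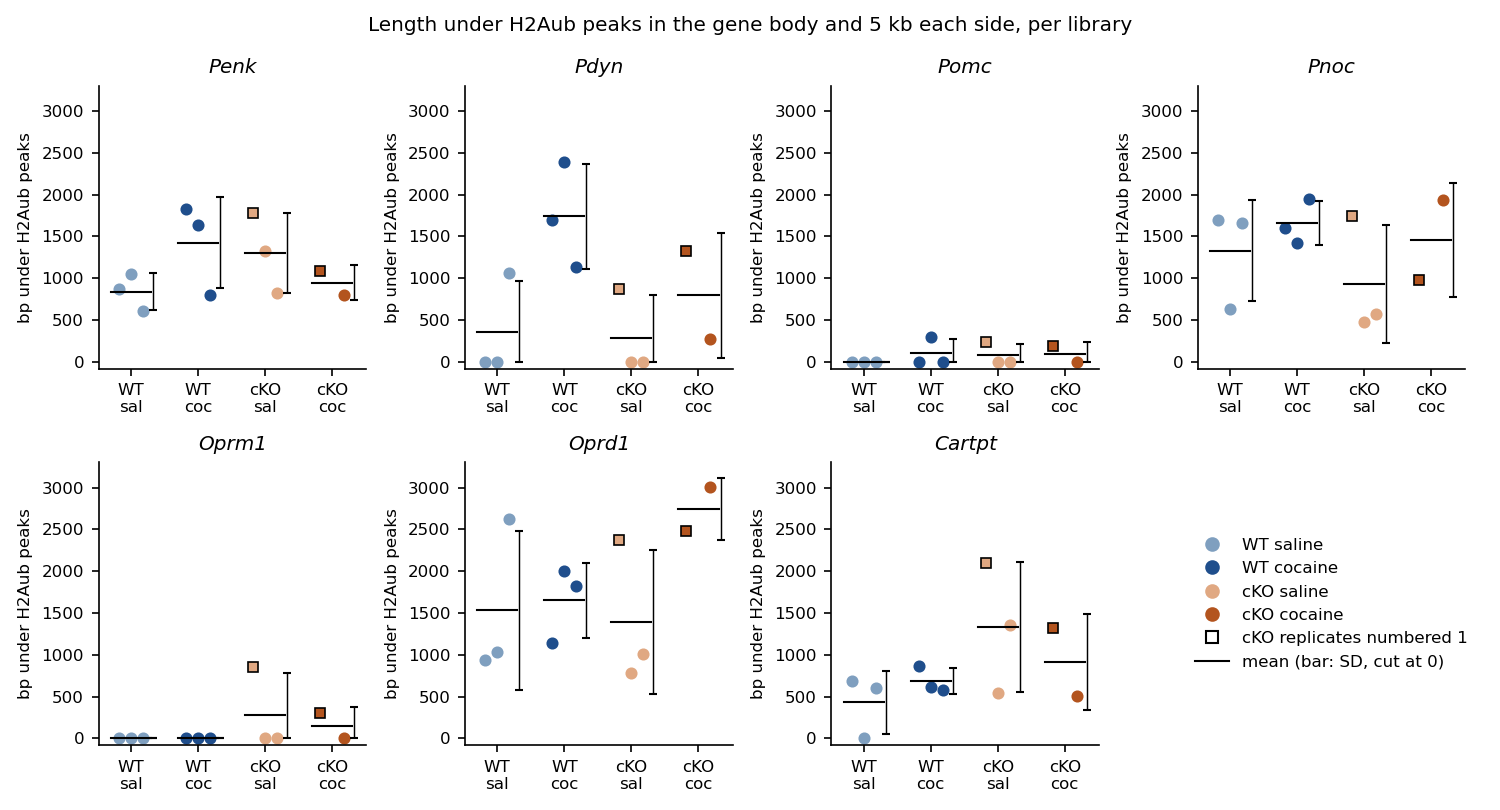
Points are libraries, with the base pairs of the window under H2Aub peaks on the vertical axis and the 4 groups on the horizontal axis, for the 7 genes with a peak in any library; squares are the cKO replicates numbered 1, lines are means and bars are SDs. Pdyn in WT cocaine (1135 to 2389 bp) lies above WT saline (0 to 1066 bp), and Oprd1 in cKO cocaine (2485 and 3009 bp) above the other groups except WT saline replicate 3 at 2630 bp.

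The same comparison in mice lacking Maged1 in vGluT2 cells set 2 cKO cocaine against 3 cKO saline libraries. Here Oprd1, the delta receptor gene, was the gene without overlap. Its covered length was 2485 and 3009 bp in cKO cocaine and 2378, 781 and 1007 bp in cKO saline. Both cocaine libraries lay above the saline libraries, but replicate 1 of cKO saline, one of the libraries that stood apart, came close. The means were 2747 ± 371 (n = 2) and 1389 ± 864 bp (SD, n = 3), a difference of 1358 ± 564 bp (SE, exact permutation p = 0.20, Benjamini-Hochberg adjusted p = 1 over 14139 genes). Of all coding genes, 2.52% were higher in cKO cocaine without overlap and 0.0503% higher in cKO saline. Without both replicates numbered 1 the difference was 2115 bp, with 1 cocaine library left. The separation ended with q at most 0.05 (2242 and 2513 bp against 2378, 781 and 1007 bp), with flanks of 10 kb (2610 and 3009 bp against 3528, 1427 and 1007 bp) and with equal list lengths (0 and 1921 bp against 227, 781 and 1007 bp). It ended as well with the number of peaks (5 and 4 against 5, 2 and 2) and the widest peak (1625 and 1131 bp against 1393, 626 and 572 bp).

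At Pdyn, the cKO groups overlapped. The covered length was 1323 and 269 bp in cKO cocaine and 873, 0 and 0 bp in cKO saline, so that both cocaine libraries and 1 saline library had a called peak. The difference was 505 ± 602 bp (SE, exact permutation p = 0.50), was 269 bp without both replicates numbered 1, −22.0 bp without cKO cocaine replicate 1 alone, 1032 bp without cKO cocaine replicate 2 and 796 bp without cKO saline replicate 1. Inside the gene, the replicates numbered 1 shared a narrow peak of 286 bp in cKO cocaine and 150 bp in cKO saline, and the cocaine library had a further peak of 220 bp. None of the other 9 lists held these peaks. Penk had 1092 and 798 bp against 1776, 1320 and 821 bp, a difference of −361 ± 313 bp (exact permutation p = 0.40). Pnoc had 977 and 1942 bp against 1741, 478 and 571 bp, a difference of 530 ± 631 bp (exact permutation p = 0.50), and Cartpt had 1320 and 504 bp against 2094, 548 and 1356 bp, a difference of −421 ± 605 bp (exact permutation p = 0.40). All of these groups overlapped with every library included. Without both replicates numbered 1, which leaves 1 cocaine library and allows no estimate of its spread, none did: the differences were 1418 bp at Pnoc, −273 bp at Penk and −448 bp at Cartpt. Leaving out single libraries moved these values in both directions. At Pnoc the difference was 47.0 bp without cKO cocaine replicate 2, 1012 bp without cKO cocaine replicate 1 and 935 bp without cKO saline replicate 1. Cartpt had −12.7 bp without cKO cocaine replicate 2 and −40.0 bp without cKO saline replicate 1, but −829 bp without cKO cocaine replicate 1 and −813 bp without cKO saline replicate 2. Penk had −126 bp without cKO saline replicate 1, −214 bp without cKO cocaine replicate 2 and −603 bp without cKO saline replicate 3.

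The difference between the cocaine effects in the 2 genotypes was tested directly, by permuting treatment within genotype over 200 arrangements. At Penk, the WT difference exceeded the cKO difference by 945 bp (exact permutation p = 0.09). For Pdyn it did so by 879 bp (p = 0.34, exact permutation), for Cartpt by 681 bp (p = 0.30), for Pnoc by −201 bp (p = 0.82) and for Oprd1 by −1236 bp (p = 0.26). All had a Benjamini-Hochberg adjusted p of 1 over 14474 genes, and none passed 0.05 before adjustment, against 0.114% of all coding genes that did. The smallest p the test can give is 0.005. Without both replicates numbered 1, with 1 cKO cocaine library left, the values were 857 bp at Penk, 1115 bp at Pdyn, 708 bp at Cartpt, −1089 bp at Pnoc and −1993 bp at Oprd1. With equal list lengths they were 495 bp at Penk (exact permutation p = 0.51), 528 bp at Pdyn (p = 0.40, exact permutation), 1143 bp at Cartpt (p = 0.115, exact permutation), −230 bp at Pnoc and 295 bp at Oprd1. A difference between the genotypes in the response of these genes was thus not detected.

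**Figure D5:**
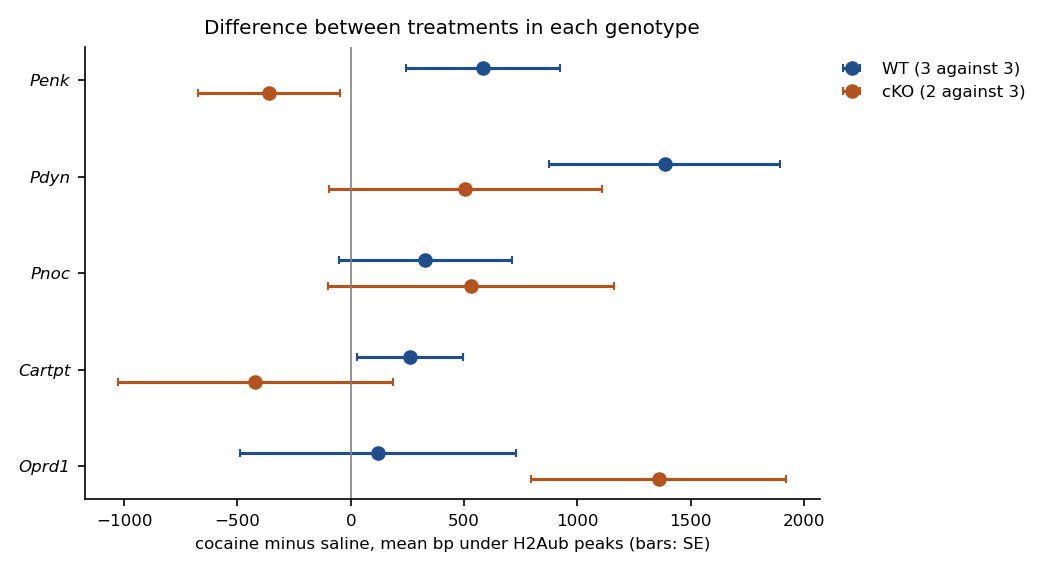
Points are cocaine minus saline in mean base pairs under H2Aub peaks (horizontal axis) for the 5 genes with recurrent peaks, in WT (3 against 3 libraries) and cKO (2 against 3), and bars are SEs. Pdyn in WT (1384 ± 508 bp) and Oprd1 in cKO (1358 ± 564 bp) lie farthest above 0.

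Between genotypes under saline, none of the 9 genes was separated. The largest mean differences were at Cartpt (1333 ± 773 bp in cKO saline and 429 ± 373 bp in WT saline, exact permutation p = 0.30) and at Penk (1306 ± 478 against 840 ± 222 bp, exact permutation p = 0.30), both SD and n = 3. Of all coding genes, 0.329% were higher in cKO saline without overlap and 0.37% higher in WT saline. Cartpt without overlap appeared when cKO saline replicate 2 was left out, and Penk when replicate 3 was left out, both higher in cKO. Without cKO saline replicate 1, Pnoc was lower in cKO without overlap.

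Between genotypes under cocaine, Oprd1 was higher in cKO, with 2485 and 3009 bp against 1142, 1997 and 1818 bp in WT. The difference was 1095 ± 369 bp (SE, exact permutation p = 0.10, the smallest that 2 against 3 libraries can give, Benjamini-Hochberg adjusted p = 0.681 over 11926 genes). Without overlap, 3.6% of coding genes were higher in cKO cocaine and 1.77% higher in WT cocaine. Without cKO cocaine replicate 1 the difference was 1357 bp. With equal list lengths the direction turned, to −475 bp, and no peak at Oprd1 in cKO cocaine replicate 1 was among its 7271 strongest. The separation also ended with the widest peak as the measure (1625 and 1131 bp against 778, 1174 and 1531 bp). The comparison shares its cKO cocaine libraries with that of the treatments in cKO, so the 2 results at Oprd1 are not independent. Pdyn had a mean of 796 ± 745 bp in cKO cocaine (n = 2) and 1739 ± 628 bp in WT cocaine (n = 3), a difference of −943 ± 640 bp (SE, exact permutation p = 0.30), and Penk had a difference of −479 ± 347 bp (exact permutation p = 0.30). Pdyn was lower in cKO cocaine without overlap in the gene body, at the gene ends and with equal list lengths. Pdyn and Penk were also lower without overlap when WT cocaine replicate 3 was left out. Cartpt had a difference of 223 ± 418 bp (exact permutation p = 0.70), with overlap. The 2 cKO cocaine libraries differed in where they lay. Replicate 2 alone was below all WT cocaine libraries at Pdyn (269 bp), Penk (798 bp) and Cartpt (504 bp), whereas replicate 1 alone was above them at Cartpt (1320 bp) and Oprm1 and below them at Pnoc (977 bp).

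Of 34 other genes that process or degrade these peptides, carry the signal of their receptors or belong to related peptide systems, 3 had a peak in all 11 libraries and 3 in none, the median covered length was 83.0 bp, and the median number of libraries with a peak was 2, as over all coding genes. For the 9 genes these medians were 795 bp and 7 libraries. The 3 marked throughout were Kcnj5, a G protein-gated potassium channel subunit (mean 2520 bp), Npffr1, a receptor for neuropeptide FF (1215 bp), and Rgs9, a regulator of G protein signalling (1131 bp). The 3 without a peak were Pcsk1, a convertase that cuts the precursors, Arrb2, an arrestin that binds active receptors, and Npff, the precursor of neuropeptide FF. None of the 34 was higher or lower in WT cocaine than in WT saline without overlap, against 5.81% and 0.11% of all coding genes. In cKO cocaine, Pam, which amidates peptides, was higher than in cKO saline without overlap (1 of 34, against 2.52% of all coding genes), and Pam and Arrb1, the other arrestin, were higher than in WT cocaine (2 of 34, against 3.6%). These counts were close to the shares over all coding genes.

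Precursors of other neuropeptides also carried the mark. Of 20 such genes, 15 had a peak in at least 2 libraries of WT cocaine (22.8% of all coding genes) and 11 in at least 2 of WT saline (17.8%), and the median covered length was 544 bp. Their median was 8 libraries with a peak and 3.76% of the window covered. For the 9 opioid and Cart genes these medians were 7 libraries and 3.40%. In WT, 7 of the 20 were higher in cocaine without overlap, against 5.81% of all coding genes, namely Tac1, Crh, Gal, Trh, Avp, Oxt and Grp, of which Avp and Oxt are neighbours whose windows share peaks. Of 10 dopamine receptor and monoamine transporter genes, 8 were marked in at least 2 libraries of each group, against 17.8% to 22.8% of all coding genes. Their median covered length was 1148 bp, with medians of 10 libraries with a peak and 4.09% of the window. Drd4, Drd5, Slc6a3 and Slc18a2 were higher in WT cocaine without overlap. In cKO, 2 of the 10 (Slc6a3 and Slc18a2) and 1 of the 20 precursors were higher in cocaine without overlap, against 2.52% of all coding genes. For the 9 opioid and Cart genes the corresponding count was 1 in WT and 1 in cKO. Whether these lists differ from each other was not tested.

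Across the 11 libraries, the covered length of Oprd1 was followed most closely by those of Lbhd2 (Spearman rho = 0.938), Pcdh10 (0.890) and Ints7 (0.884), out of 4626 coding genes with a peak in at least 6 libraries and more than 1 Mb away. These values are a description over 11 points that share the length of their list, and 15 genes reached a rho of 0.8.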

How the data were processed

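The members and the gene lists were chosen with earlier results of these data known. By their processing notes and methods, the authors mapped adapter-trimmed read pairs to mm10 with Bowtie2 (2.3.4.1). Broad peaks were then called in each library against input with MACS2 (2.1.1.20160309.3). The deposited lists give a linear fold enrichment over input and −log10 p and q values (highest q 0.0997), without read counts. Peaks of the assembled nuclear chromosomes (all but 10 peaks) were laid over GRCm38.p6 gene positions from a RefSeq table without strand, and all 9 symbols matched. The covered length was computed for 21887 coding genes with Python 3.11.15, numpy 2.4.6 and pandas 2.3.3, and checked on simulated peaks. A gene was called without overlap when all libraries of a group exceeded all of the other. Group means were compared by two-sided exact permutation tests, adjusted (Benjamini-Hochberg) over genes with a peak in any library compared. p-values measure the spread between pooled samples. Named genes were all 9 members, pathway genes marked in all, in none or separated in WT, and the 3 genes most like the most covered member; Pam, Arrb1 and the comparison genes called in WT were named after their values were seen. Alternatives changed the q limit, list length, window, measure, replicates and pairing. Promoter sequences were not used here.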

Additional observations from a re-analysis of the deposited data

How the results depend on the processing

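Counts over 9 genes move easily. The share of all coding genes was computed for the first counts only, so the recounts below have no background. With fewer libraries in a group, separation without overlap is met more easily. Of 152 recounts, 110 stayed within 1.5 times of the first count, and of 158 recomputed differences in 16 results, 148 kept their direction. For most of them no p under 0.05 was possible, since 3 against 3 or 2 against 3 libraries cannot go below 0.10. In WT, the number of genes higher in cocaine fell from 1 to 0 with equal list lengths, gene ends only, the number of peaks or the widest peak as the measure, and was 1 to 2 with a library left out. In cKO, the number higher in cocaine was 0 with q at most 0.05, equal list lengths, flanks of 10 kb, the number of peaks or the widest peak, 3 without both replicates numbered 1 (Pdyn, Pnoc and Oprd1) and 1 to 3 with a library left out. The number higher in cKO saline rose from 0 to 1 with equal list lengths or the widest peak (Cartpt), to 2 without both replicates numbered 1, and was 0 to 2 with a library left out. Against WT saline, cKO saline had 0 to 1 higher and 0 to 1 lower with a library left out, and 1 lower (Pnoc) without replicate 1. Against WT cocaine, cKO cocaine had 0 higher with equal list lengths or the widest peak and 1 to 3 with a library left out, and the number lower rose from 0 to 1 with equal list lengths, the gene body or the gene ends (Pdyn), 2 with the widest peak, 3 without both replicates numbered 1, and 0 to 3 with a library left out. With equal list lengths, 1 gene in place of 5 had a peak in both cKO cocaine libraries.

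The directions that turned were Pnoc in WT (−53.3 bp with equal list lengths, −56.3 bp with gene ends only, −21.0 to 512 bp with a library left out, negative without WT saline replicate 2), Oprd1 in WT (−99.0 bp in the gene body, and −177 to 672 bp with a library left out, negative without WT cocaine replicate 2 (−50.3 bp), WT saline replicate 1 or WT saline replicate 2 (−129 bp)), Pdyn in cKO (−22.0 to 1032 bp with a library left out, negative without cKO cocaine replicate 1) and, with equal list lengths, Oprd1 between genotypes under cocaine (−475 bp) and in the difference of effects (295 bp). The cause was not tested, beyond that equal list lengths remove the weaker peaks of long lists.

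The labels number the replicates. Same-numbered WT libraries deviated from their group means with correlations of 0.0705, −0.00499 and 0.0308 over 14474 genes, so the numbers did not pair them, and the 2 cKO pairs (0.429 and 0.353) were too few. With the replicate block, 2 genes were higher in WT cocaine in every same-numbered pair, 2 in cKO cocaine and 2 in cKO saline. Between genotypes, every pair was higher in cKO for 2 genes under saline and, under cocaine, higher in cKO for 1 gene (Oprd1) and higher in WT for 2 genes. The share of all coding genes that met this rule was not computed, so these counts have no background. With 3 or 2 pairs, agreement in direction is easily met. The blocked difference was 1384 bp at Pdyn in WT (exact permutation p = 0.25) and 1168 bp at Oprd1 in cKO (p = 0.50), the smallest that 3 and 2 pairs can give.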
